A study of Drosophila melanogaster with 10 samples.

Results

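The genes described here are 7 genes of the Drosophila JAK-STAT pathway, upd1, upd2, upd3, dome, hop, Stat92E and Socs36E, taken by symbol from 13922 protein-coding genes that RefSeq places on chromosomes 2L, 2R, 3L, 3R, X and 4 of the dm6 assembly. They were described by ATAC-seq summits, 70 of the 39806 in the deposited list, each inside or within 2000 bp of a gene. ATAC-seq uses the transposase Tn5 to insert adapters into accessible DNA, and a summit is a position of locally highest signal within a peak. The cells were S2 cells, an embryo-derived line with macrophage-like properties. They were kept for 5 days with 10 µg/mL of dsRNA against LACZ as the control, GAF, BAP170, NURF301, or NURF301 and BAP170 together, with 2 libraries for each. GAF is the GAGA factor, BAP170 is a subunit of the PBAP remodeler and NURF301 is a subunit of the NURF remodeler. The study deposited 1 list without a value per library, and it is taken here as made from all 10. No value of a single treatment or library can therefore be given, there are no replicates, and the depth behind each summit is unknown.

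In this pathway a secreted cytokine of the Unpaired family binds the receptor Domeless, which activates the Janus kinase Hopscotch. The kinase phosphorylates the transcription factor Stat92E, which enters the nucleus and activates target genes. Socs36E is such a target, and its product dampens the signal, which makes it a feedback gene. The pathway is known in flies for roles in embryonic segmentation, stem cell niches, blood cell formation and the response of hemocytes to infection and wounding.

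Of the 7 genes, 6 had at least 1 summit in their window, and upd1 had 0. By the same rule 72.8% of all protein-coding genes had a summit, as did 66.8% of those on X and 83.9% of the 4683 whose length was between 2631 and 16989 bp, the shortest and the longest of the 7. A summit inside the gene was found in upd3, dome, Stat92E and Socs36E, or 4 of 7, against 48.7% of all protein-coding genes and 63.8% of those in the same range of length. The gene table gives no strand, so a gene's ends are called here the lower and the upper boundary, by coordinate, and which is the promoter was not used. A summit within 500 bp of either boundary was found at 5 of 7 genes, against 60.0% of all and 72.5% of those in the same range of length. The exceptions were upd1 and Stat92E, and the nearest summit of Stat92E lay 528 bp from its upper boundary. These shares are descriptions of 7 genes beside the background, and no test was made on them.

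Each summit carries a score, the q value of the peak caller as −log10, which rises with depth and copy number as well as with accessibility. Over the whole list the scores ran from 1.30 to 80130, with a median of 21.9. Of the 70 summits, 37 (52.9%) were at or above that median, and 5 (7.14%) reached 175, the score above which the strongest 10% of the list lie. All 5 were in the window of Socs36E. The strongest, with scores of 302 and 298, lay inside the neighboring gene kel. Those of 219 and 190 were inside Socs36E, and that of 215 was 69 bp above its upper boundary. A summit of that strength lay in the window of 27.2% of all protein-coding genes and of 1 of the 7. The share was 8.28% of genes on X, 30.8% of autosomal genes and 35.9% of genes in the same range of length. Summits on X had a median score of 18.0, against 22.4 on the autosomes, and 5 of the 7 genes, including all 3 ligand genes, are on X. S2 cells are known to carry fewer copies of X than of the autosomes, and the part of copy number in these scores was not tested.

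**Figure D1:**
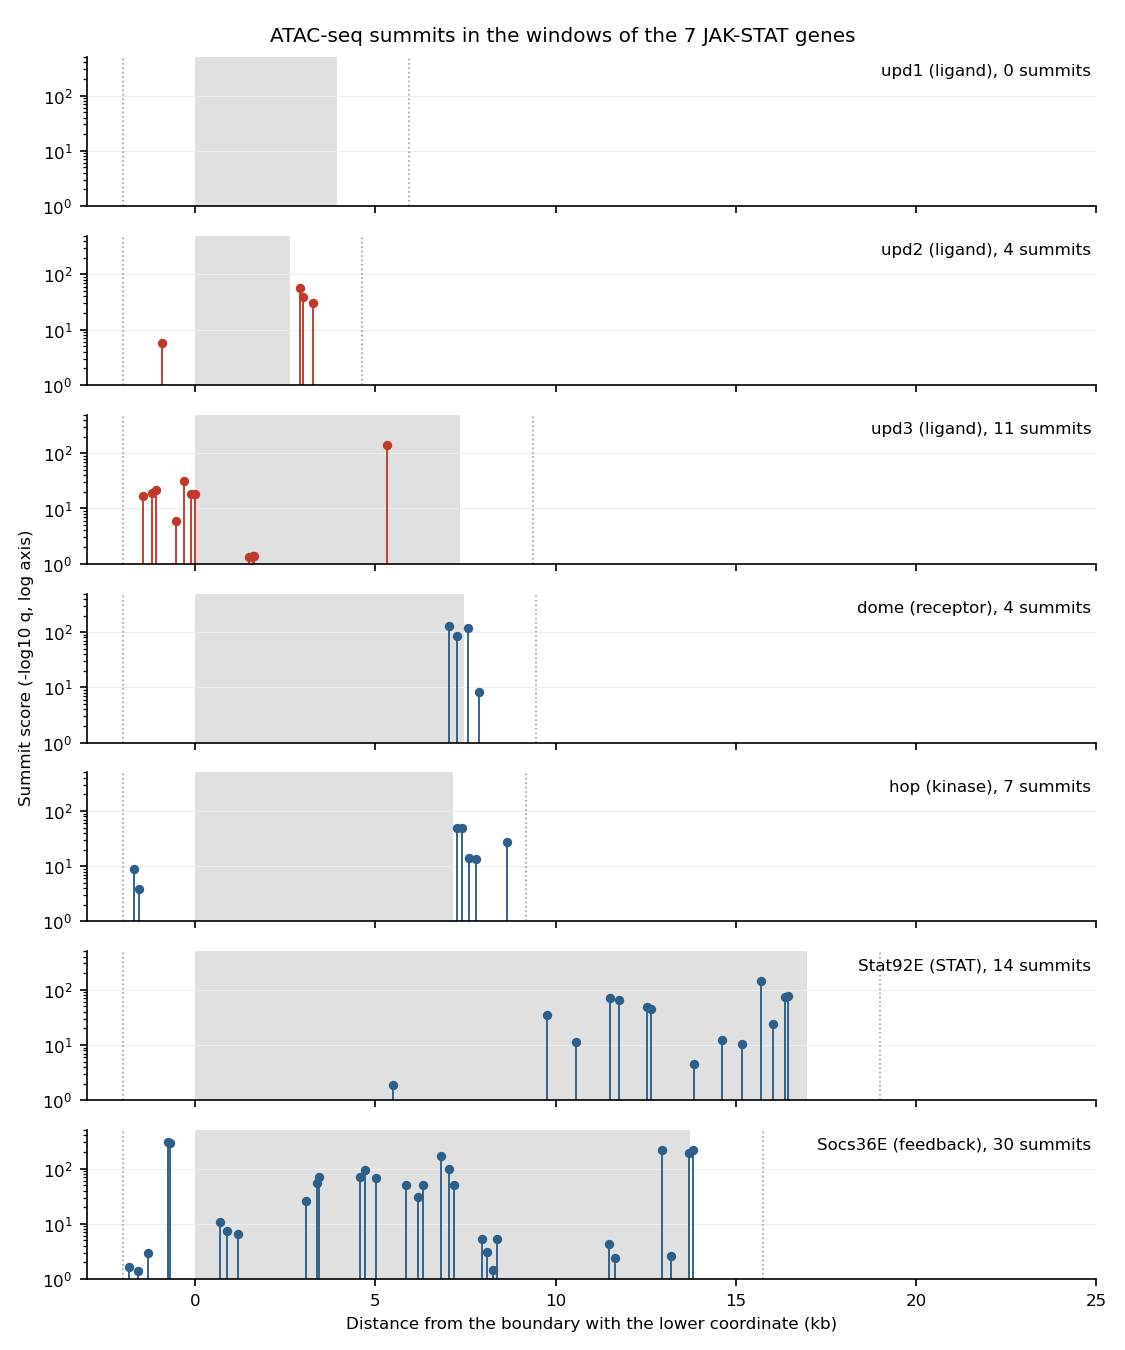
Summit scores (−log10 q, log axis) against the distance from the lower boundary of each gene in kb, for upd1, upd2 and upd3 (red) and dome, hop, Stat92E and Socs36E (blue). Grey marks the gene and dotted lines mark 2000 bp on each side; upd1 has 0 summits, Stat92E has all 14 inside the gene, and Socs36E has 30.

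The ligand gene upd1, which encodes the Unpaired protein of embryonic segmentation, lies on X from 18305354 to 18309291 (3938 bp, 3 transcripts). No summit was listed inside it or within 2000 bp. The nearest was at 18312777, which is 3486 bp above its upper boundary, between lncRNA:CR45609 and CG6023, with a score of 190. On the other side, the nearest was 12903 bp below its lower boundary. The 2 enclose a stretch of 20326 bp that holds upd1 and no summit. A nearest summit at least as far away was found for 21.7% of all protein-coding genes and 27.7% of those on X, so a gene with bare surroundings is common in this list.

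The ligand gene upd2, whose product is known as a fat body signal of the fed state, lies on X from 18240654 to 18243284 (2631 bp, 1 transcript). It had 4 summits in 2 peaks and no summit inside the gene. The upper 3 lay 272, 364 and 654 bp above the upper boundary, with scores of 57.4, 39.5 and 30.8, all above the list median. The lower summit lay 915 bp below the lower boundary with a score of 5.63. The listed accessibility at upd2 was therefore in the flanks, mostly above the gene, and no other gene boundary lay within 500 bp of any of the 4 summits.

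The ligand gene upd3, which hemocytes are known to induce on infection, lies on X from 18277233 to 18284596 (7364 bp, 1 transcript). Its 11 summits fell in 3 peaks, with 5 summits inside the gene and 6 below its lower boundary. A peak of 7 summits spanned 1464 bp across that boundary, from 1451 bp below it to 13 bp inside. Its scores were 17.0, 18.9, 21.7, 6.03, 30.8, 18.5 and 18.3 in order of position, so 1 of the 7 exceeded the list median. Farther inside, 3 summits between 18278717 and 18278872 had scores of 1.31, 1.38 and 1.38, near the lowest of the list. The remaining summit formed a peak alone at 18282566, 5333 bp above the lower boundary and 2030 bp below the upper, and its score of 144 was the highest among the 3 ligand genes. It was above 86.8% of the list. The summit nearest a boundary of upd3 thus scored 18.3, and the strongest lay in the gene's interior, 9814 bp from the boundary of any other gene.

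The 3 ligand genes are neighbors. From the lower boundary of upd2 to the upper boundary of upd1 the cluster covers 68638 bp, with 33948 bp between upd2 and upd3 and 20757 bp between upd3 and upd1. It held 20 summits in 8 peaks, or 2.91 per 10 kb, against 2.08 per 10 kb over X up to its last gene or summit. Of the 20, 14 were within 2000 bp of upd2 or upd3, and 6 were farther away. The 6 had scores of 28.7, 2.42 and 3.78 between 3997 and 6301 bp above upd2, and of 18.5, 12.7 and 12.7 between 6231 and 7855 bp above upd3, the last of them inside lncRNA:CR15061. A gap of 26197 bp without a summit ran from 18249585 to 18275782 and contained lncRNA:CR45613 and the protein-coding gene CG15059. Within the cluster, summits were grouped at the upper side of upd2 and at the lower side and interior of upd3, and the stretch below upd1 was bare. An intergenic summit cannot be assigned to a gene from this list.

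**Figure D2:**
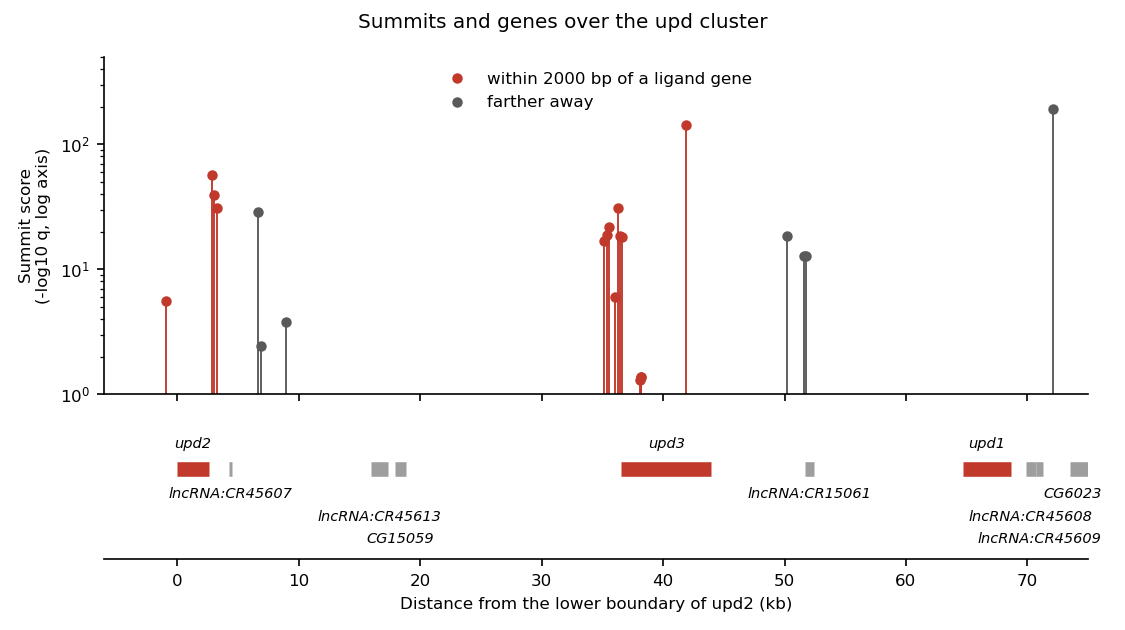
Summit scores (−log10 q, log axis) against the distance from the lower boundary of upd2 in kb, with genes drawn below. Red summits are within 2000 bp of a ligand gene and grey ones are farther away; the strongest summit of upd3 (score 144) lies inside the gene, and the score of 190 lies beyond upd1, past 2 lncRNA genes.

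The receptor gene dome lies on X from 19676061 to 19683518 (7458 bp, 1 transcript). Its 4 summits formed 1 peak that spanned 833 bp around the upper boundary. The summits inside the gene, 403 and 190 bp below that boundary, had scores of 129 and 86.2. The summit 125 bp above it had a score of 120, and the last, 430 bp above it and inside the neighboring gene Ubqn, had a score of 8.24. Ubqn, which encodes the proteasome shuttle factor ubiquilin, is separated from dome by 289 bp, and the signal cannot be divided between dome and Ubqn. The remaining 7054 bp of dome had no summit, nor did the gap of 169 bp that separates dome from et on the other side. The gene et encodes a shorter receptor related to Domeless that is known to oppose signaling, and it had 0 summits in its own window, with the nearest 3363 bp away.

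The kinase gene hop lies on X from 11360930 to 11368098 (7169 bp, 1 transcript). It had 7 summits in 3 peaks and no summit inside the gene. Above the upper boundary, summits at 112 and 233 bp had scores of 49.2 and 48.6. These lie in the gap of 346 bp between hop and Tim8, which encodes a small chaperone of mitochondrial import. Summits at 440 and 631 bp lay inside Tim8, with scores of 14.1 and 13.5, and a summit at 1473 bp, 94 bp from dlg1, had a score of 26.9. Below hop, summits at 1701 and 1563 bp had scores of 8.88 and 3.89, on either side of the outer boundary of Pa1, a gene that borders hop directly. All 7 were within 500 bp of the boundary of another gene, so the summits of hop were flanking and shared. The share of such summits over the whole list was not computed.

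The gene for the transcription factor, Stat92E, lies on 3R from 20535323 to 20552311 (16989 bp, 11 transcripts). All of its 14 summits, in 8 peaks, were inside the gene, and no summit lay in either flank. From the lower boundary, 5484 bp were bare, and 13 of the 14 lay above the midpoint. A peak of 5 summits spanned 1299 bp toward the upper boundary. Its scores were 10.4, 142, 23.9, 72.9 and 75.9, and the last of its summits was 528 bp from the boundary. Between the weakest and the strongest peak of the gene, the others reached 35.7, 11.1, 70.7, 48.4, 4.46 and 12.1, and the weakest, a single summit at 20540807, scored 1.88. Of the 14, 9 were at or above the list median. No summit of Stat92E was inside another gene or within 500 bp of the boundary of another, although DPCoAC, a mitochondrial carrier gene, lies only 73 bp beyond Stat92E.

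The feedback gene Socs36E lies on 2L from 18138675 to 18152417 (13743 bp, 3 transcripts). It had 30 summits in 7 peaks, of which 24 were inside the gene, 13 below its midpoint and 11 above. At the upper boundary, a peak of 4 summits had scores of 219, 2.62, 190 and 215, and the last lay 69 bp outside the gene. In the interior, a peak of 9 summits spanned 2612 bp, with scores from 30.8 to 168, and its highest summit was 4 bp from the edge of lncRNA:CR44478, a gene that lies within Socs36E. A peak of 3 summits between 18141758 and 18142124 reached 70.7. The other inner peaks, of 3, 4 and 2 summits, reached only 11.0, 5.37 and 4.24. The highest scores of the window, 302 and 298, were 750 and 686 bp below the lower boundary and inside kel, which encodes the ring canal protein Kelch and is separated from Socs36E by 591 bp. Inside Socs36E the highest score was 219. Of all peaks in the list, 2.64% had 9 or more summits.

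Compared with all protein-coding genes, Socs36E had more summits than 98.7% of them, upd3 more than 89.5%, Stat92E more than 93.5%, hop more than 76.3%, and dome and upd2 more than 56.1%. Longer genes have wider windows, so the number was also divided by the window length. Socs36E had 1.69 summits per kb, upd3 0.968, Stat92E 0.667, hop 0.627, upd2 0.603, dome 0.349 and upd1 0, against a median of 0.364 over all protein-coding genes. By this measure Socs36E was above 95.3% of all genes and dome near the middle, above 48.9%. The median density was 0.208 on X, 0.387 on the autosomes and 0.437 for genes in the length range of the 7. By density among genes of X, upd3 was above 88.5%, hop above 77.0%, upd2 above 75.5% and dome above 59.2%. By density among autosomal genes, Socs36E was above 94.9% and Stat92E above 66.3%. The strongest score of a window, with 0 for a gene without a summit, was 302 at Socs36E, 144 at upd3, 142 at Stat92E, 129 at dome, 57.4 at upd2, 49.2 at hop and 0 at upd1. The median strongest score over all protein-coding genes was 70.8, with 22.4 on X and 90.7 on the autosomes. For genes in the length range of the 7 it was 111. Among genes of X, upd3 was above 90.1%, dome above 89.1%, upd2 above 72.7% and hop above 68.9%. Among autosomal genes, Socs36E was above 88.3% and Stat92E above 62.7%. The score of Stat92E is near that of upd3 but ranks lower among the genes of its own chromosome class.

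**Figure D3:**
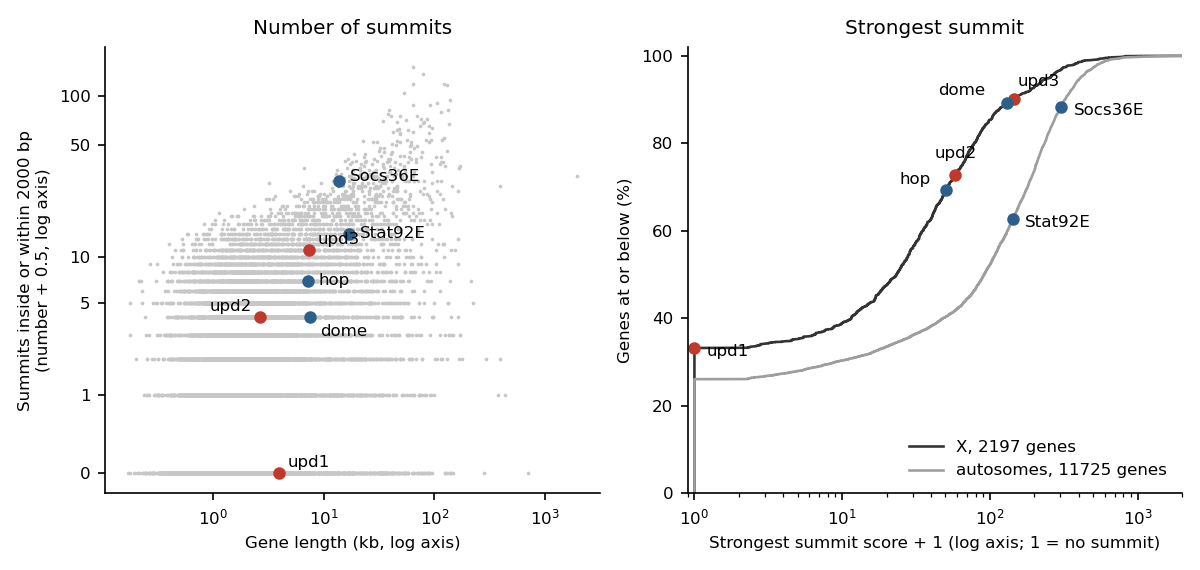
Left, number of summits per window (number + 0.5, log axis) against gene length in kb (log axis) for all 13922 protein-coding genes (grey) and the 7 genes. Right, share of X genes (dark line) and autosomal genes (light line) with a strongest score at or below each value (score + 1, log axis), with ligand genes in red and the others in blue on the line of their own chromosome class; Socs36E, with 302, is above 88.3% of autosomal genes.

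The design of the comparison within the pathway sets the 3 ligand genes against the receptor, kinase, STAT and feedback genes. The ligand genes had 15 summits in 5 peaks, and the other 4 genes had 55 summits in 19 peaks. Of the ligand summits, 5 of 15 (33.3%) were at or above the list median, and of the others 32 of 55 (58.2%). The median score was 18.5 for ligand summits and 35.7 for the others. All 15 ligand summits are on X, and 44 of the 55 others are on the autosomes, at Stat92E and Socs36E. Over the whole list the median score was 18.0 on X and 22.4 on the autosomes. The part of the chromosome in these summit values was not tested. By gene, the median strongest score was 57.4 for the ligands (0 to 144) and 136 for the others (49.2 to 302), a difference of -78.2, and the ranges overlapped. The 302 lies inside kel, and the highest score inside Socs36E was 219. Windows were 6.63 to 11.4 kb long for the ligands and 11.2 to 21.0 kb for the others. The strongest score of a gene can only rise as its window widens, and the part of window length was not tested. The median density was 0.603 summits per kb for the ligands (0 to 0.968) and 0.647 for the others (0.349 to 1.69), a difference of -0.0436. The density difference was small beside the spread among the genes of either group. No test was made, since the genes are not replicates and summits of 1 gene share peaks.

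The score difference was the same with 500 or 1000 bp on each side as with 2000 bp, but not with 5000 bp. With 5000 bp on each side, the summit beyond upd1 was counted, the ligand median rose to 144 and the difference became 8.36. Against dome and hop alone, the other genes on X, the difference in strongest score was -32.0. The density difference changed sign as well, to 0.268 with 1000 bp on each side and to 0.115 on X. The summits also lay in different places. Of the ligand summits 5 of 15 were inside the gene, all in upd3, and of the others 40 of 55, of which 38 were in Stat92E and Socs36E, the 2 longest genes. Summits inside another annotated gene made up 0 of 15 for the ligands and 10 of 55 for the others, at dome, hop and Socs36E. Within 500 bp of the boundary of another gene lay 0 of the 15 ligand summits and 17 of the 55 others. Of the 17, 3 were at dome, 7 at hop and 7 at Socs36E. The shares of such places over the whole list were not computed. These counts describe the surroundings of single genes and are not read as a difference between the groups.

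**Figure D4:**
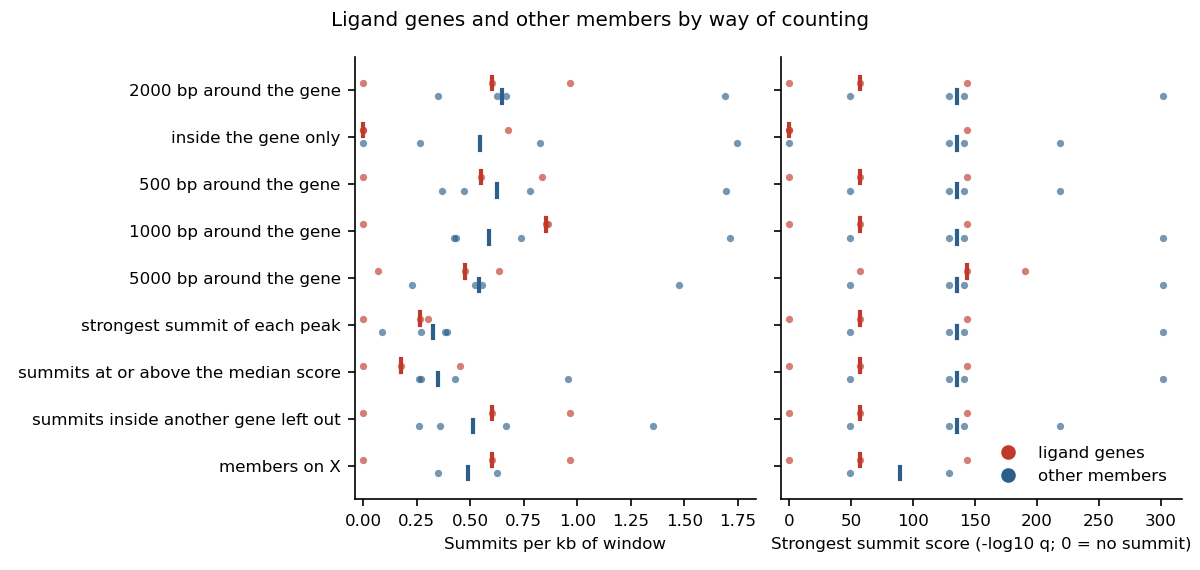
Summits per kb (left) and strongest score (right; 0 for no summit) of the ligand genes (red) and the other members (blue) for each way of counting, with a point per gene and a bar at the median. The ranges of the groups overlap in every row of both panels, and the ligand median score moves from 57.4 to 144 when 5000 bp are counted.

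Other genes of the pathway were described from lists of 10 regulators and 8 targets. Among the regulators, 9 of 10 had a summit, all but et, against the background of 72.8%. Their median was 7 summits and their median strongest score 138, where over all protein-coding genes these medians were 3 and 70.8. Among genes between 2631 and 16989 bp long, the medians were 4 and 111, and 83.9% had a summit. The regulators ran from 1181 bp at asrij to 132765 bp at Ptp61F, and the part of length was not tested. Of the regulators, et and Socs16D are on X and the rest on the autosomes, where the median strongest score was 90.7. Per kb of window the regulators had a median of 0.692 summits, against 0.364 over all protein-coding genes and 0.437 in that range of length. Ptp61F, which encodes a phosphatase that acts on the kinase and STAT, is 132765 bp long and had 82 summits, more than 99.9% of genes, but its density per kb was close to that of upd2. The gene ken, which encodes a repressor related to human BCL6, had 20 summits with a density of 1.79 per kb and a strongest score of 147. Su(var)2-10, the PIAS gene of flies, had 7 summits and a strongest score of 238. The other SOCS genes of the list, Socs44A and Socs16D, had 8 and 5 summits with strongest scores of 128 and 44.7. Both scores were below the 302 of the window of Socs36E and the 219 inside it. Socs44A and Socs16D are also shorter, 1902 and 6801 bp against 13743 bp, and Socs16D is on X. Per kb of window they had 1.36 and 0.463 summits, against 1.69 at Socs36E. BRWD3, a bromodomain gene required for signaling, had 9 summits and a score of 196, and asrij, which encodes an endosomal protein of blood cells, had 6 and 190. The endosomal sorting genes Stam and Hrs had 7 and 5 summits, with 127 and 53.6.

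Among the targets, 5 of 8 had a summit, against the background of 72.8%. The transcription factor genes chinmo and zfh1 had 37 and 34 summits, and the strongest scores in their windows were 270 and 419. Inside zfh1 itself the strongest score was 211. Diap1, which encodes an inhibitor of caspases, had 29 summits and a strongest score of 272 in its window, but 167 inside the gene. The gene vir-1, which is induced by viral infection, had 20 summits and a strongest score of 331, inside the gene. CycD, which encodes cyclin D, had 2 summits, neither inside the gene, with a highest score of 56.7. The stress-induced genes TotA, TotC and TotM, which encode small secreted peptides, had 0 summits in their windows, with the nearest 18973, 17093 and 2566 bp away. They are short, 593 to 665 bp long. Summits mark accessibility, and none of these values is a level of expression.

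**Figure D5:**
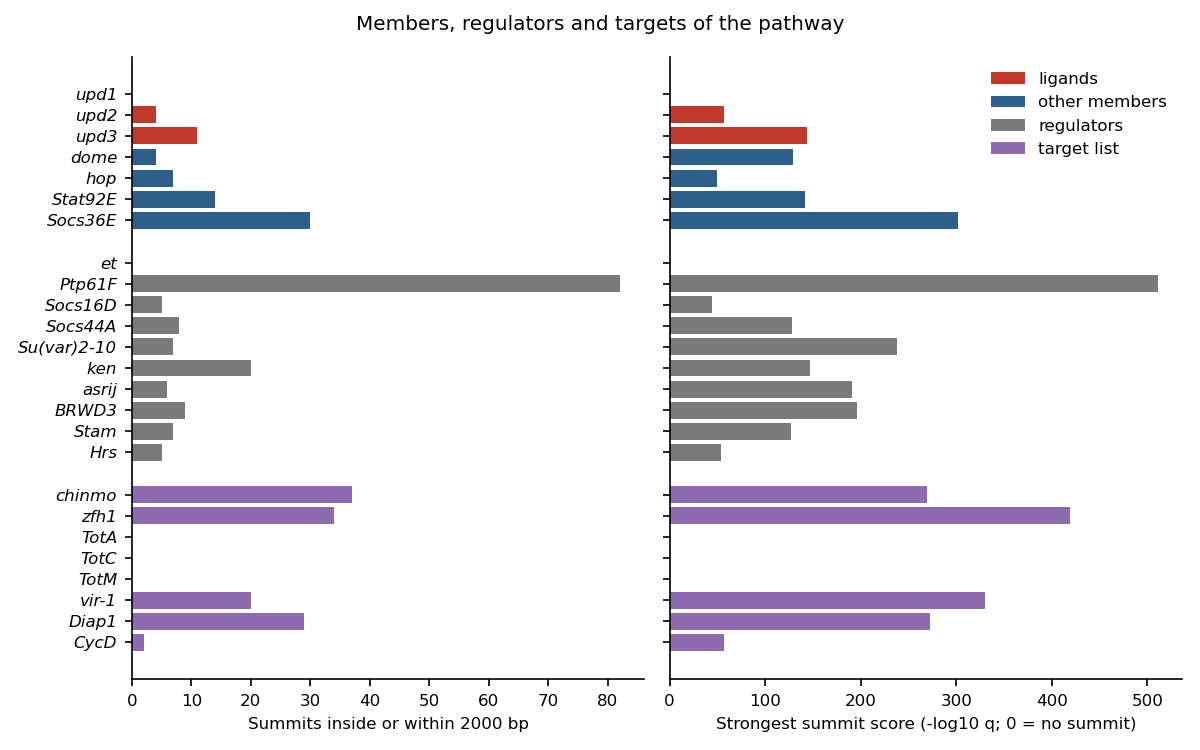
Number of summits (left) and strongest score (right, −log10 q) in the window of each member, regulator and target; bars start at 0 and a gene without a bar had no summit. The genes without a summit are upd1, et, TotA, TotC and TotM, and Ptp61F has the most, 82.

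The identity of the cells was looked at with marker genes. All 5 hemocyte genes (Hml, Pxn, srp, eater and NimC1) had a summit, against the background of 72.8%, with 31 at srp, 31 at Pxn, 3 at NimC1, 2 at eater and 1 at Hml. Of 5 genes of neurons, muscle and germline, elav, nSyb, vas and nanos also had a summit and Mhc had 0, so a summit in the window did not separate these lists. The median strongest score of the windows was 40.4 for the hemocyte genes and 152, that of nanos, for the others. Window scores included 577 at srp, 459 at nSyb and 331 at vas, and the ranges of the lists overlapped. Inside the hemocyte genes the strongest scores were 577 at srp, 131 at Pxn and 2.92 at eater, and Hml and NimC1 had no summit inside. Among the others, the strongest inside the gene was 214 at vas and 1.46 at nanos, and the strongest summit of elav was inside. The nearest summit of nSyb lay 1559 bp outside it. The window medians therefore do not compare accessibility inside the genes.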

How the data were processed

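ATAC-seq was made from S2 cells in 10 libraries, 2 for each of 5 dsRNA treatments. The authors deposited 1 list of 39806 summits, each 1 bp long, in 15615 peaks, and its values are −log10 of q, as the peak caller wrote them for the deposited file. Peak names start with ALL_ATAC_PEAKS and no value is given per library, so the list was taken as made from all libraries together. The names do not say whether reads were pooled or peaks were merged. Per the submitters' processing notes, the build was dm6 and the tools included Bowtie2 2.3.5.1 and MACS2 2.1.0.20150731, beside DESeq2 1.26.0 and deepTools 3.1.3. How reads were filtered, or shifted to the transposase cut, is not given in the sources used here. Columns of values without a mapped sample numbered 0.

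Genes came from the RefSeq table of the same assembly, matched by symbol with case. Each gene was given the summits inside it or within 2000 bp, their number per kb of window, and the strongest score, with 0 where no summit was listed. The planned distance to the start was measured to either boundary, since the table has no strand. Counting was tested on simulated data. All 7 members were named, with the neighbors of their summits and every gene of the lists; nos was matched to nanos. The members and lists were chosen with earlier results of these data known. Python 3.11.15, numpy 2.4.6, pandas 2.3.3 and matplotlib 3.10.9 were used. Other distances, the strongest summit of each peak, a score minimum at the median, removal of summits inside another gene and genes of X alone were the alternatives. No genome sequence was used here, so no motif or sequence was examined.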

Additional observations from a re-analysis of the deposited data

How the results depend on the processing

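No paired analysis was possible because the list has no value per library. For the same reason no replicate could be left out. The number of members with a summit was 6, and between 4 and 7 under the alternatives. It was 4 inside the gene and 7 with 5000 bp. The number with a summit near a boundary was 5, and between 4 and 6. The difference between ligands and other members in strongest score, -78.2, was -136 inside the gene, -32.0 on X and 8.36 with 5000 bp. It was the same under the other 5 alternatives. The difference in density, -0.0436 per kb, was -0.546 inside the gene, -0.0748 with 500 bp and -0.173 for summits at or above the median score. It reversed to 0.268 with 1000 bp, to 0.115 on X and to 0.0907 without summits inside another gene. Each alternative changes which summits or genes are counted, and no further cause was tested. Measuring to either boundary was the main choice here, so it was not run again. Depth per library is unknown, and a summit below the threshold of the peak caller cannot be told from an inaccessible site.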

Other observations

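Many scores in the list are repeated exactly. Of the 39806 summits, 24822 (62.4%) share their score with another summit, and 28 of the 70 summits of the members do. All 26 summits of the members on X are among these, against 2 of 44 at Stat92E and Socs36E. Over the whole list the share is 74.5% on X and 60.5% on the autosomes, and the reason for the repeats was not tested. The summit of upd2 at 18243938 and that of upd3 at 18276931 both have a score of 30.8, and the summit 3486 bp beyond upd1 has the same score of 190 as the strongest in the window of asrij. The list holds 15915 different scores. Equal scores at different genes are therefore common in this list.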
